A study of Mus musculus with 18 samples.

Results

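The mRNAs of 46 genes for enzymes that write or erase methyl groups on histone lysines and arginines, or for close relatives and core subunits of such enzymes, were followed in mouse T cells in which the Notch pathway factor RBPJ, or its partner L3MBTL3, had been manipulated. The genes were listed by symbol, and all 46 were found among the 24391 genes of both tables of normalized counts. All 46 had a mean value of at least 10 in both tables, so none was left out. They comprise 8 H3K4 methyltransferases, 7 H3K36 methyltransferases and related SET domain genes, 4 core genes of Polycomb repressive complex 2 (PRC2), 6 H3K9 methyltransferases, 2 methyltransferases of H4K20 and H3K79, 12 lysine demethylases and 7 arginine methyltransferases. For brevity all are called enzymes below, although Suz12 and Eed encode subunits of PRC2 without catalytic activity of their own.

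Methyl groups on histones are placed by SET domain enzymes and by Dot1l on lysines, and by the PRMT family on arginines. They are removed from lysines by amine oxidases of the Kdm1 family and by Jumonji demethylases. H3K4 methylation marks active promoters and enhancers, H3K36 and H3K79 methylation mark transcribed gene bodies, and H3K9 and H3K27 methylation go with silent chromatin. RBPJ is the DNA-binding factor of the Notch pathway. L3MBTL3 is a reader of methylated lysines that has been described as bringing the H3K4 demethylase KDM1A to genes bound by RBPJ.

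RNA was sequenced from E2-10HA, a mouse T cell hybridoma, in 18 libraries. In the knockdown experiment the cells carried pLKO.1 with either a scramble hairpin or a hairpin against L3MBTL3 (shRNA_1) and were selected in puromycin, with 3 libraries per group. In the rescue experiment all groups were depleted of RBPJ, infected with a pMY-Bio IRES Blasticidin plasmid and selected in blasticidin. That plasmid was empty, or it encoded Flag-tagged mouse RBPJ WT, or the F261A/A284V form of it, with 4 libraries per group. Only 1 hairpin was used, so an effect of L3MBTL3 cannot be told apart from another effect of that hairpin. The RBPJ of the rescue is expressed from a plasmid. Nothing in the labels ties replicates to separate cultures or infections, so the spread behind every p-value may be purely technical.

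Recovered reads per library, that is, gene counts worked back from the normalized values, summed to 4882485 to 6129134 in the knockdown, 5923799 to 7921533 in replicates 1 and 2 of the rescue and 3553505 to 4239479 in its replicates 3 and 4. Those 2 sets of rescue replicates stood apart in every group, for a reason not given in the sources used here. Replicates 1 and 2 of empty vector, and likewise those of RBPJ WT, differed by less than the noise of read sampling (chi-square divided by its degrees of freedom 0.859 and 0.721), as did replicates 3 and 4 of F261A/A284V (0.823). Each such pair was counted as 1 sample, leaving 3 samples per rescue group. L3mbtl3 itself averaged 378 ± 13.8 (SD, n = 3) with its hairpin and 422 ± 61.8 (n = 3) with scramble and was not called lower (log2 difference -0.15, limma adjusted p = 0.402). Kdm1a was called in none of the 4 comparisons, and its log2 difference with the hairpin was 0.03. Rbpj was higher with RBPJ WT and with F261A/A284V than with empty vector, by 1.41 and 1.51 on the log2 scale. Of 11 T cell markers 10 had a mean of at least 10, while the markers of B cells, NK cells and stroma summed to at most 7.61 in any library and none of them reached that mean. Of 7 myeloid markers, 2 reached it in the knockdown and 4 in the rescue.

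Every enzyme was expressed in the scramble cells, and the classes were mixed along the order of levels. Levels of different genes are compared here as normalized values per kilobase of the longest protein-coding transcript (GENCODE vM21 on GRCm38), a length that may differ from that of the isoform expressed. Ehmt2, which encodes the H3K9 methyltransferase G9a, stood highest at 562 ± 60.7 per kb (SD, n = 3). Setd8, the H4K20 monomethyltransferase, followed at 420 ± 27.7 per kb. The H3K9 demethylase gene Kdm3b came next at 380 ± 17.6 per kb, then Suz12, a PRC2 subunit needed for its activity, at 354 ± 24.7 per kb. Setd1b, a subunit of a SET1 complex for H3K4 trimethylation, stood lowest at 30.8 ± 2.73 per kb. Only the steps from Ehmt2 to Setd8 and from Kmt2d to Setd1b were larger than the spread, and in the other 43 of 45 neighbouring pairs the ranges of mean ± SD met.

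Within classes the order was as follows on the same per-kilobase scale. The H3K4 methyltransferases had the lowest median of the 7 classes, 117 per kb, from 30.8 for Setd1b to 215 for Kmt2e, a family member with little known catalytic activity. The PRC2 core ranged from 206 for Ezh1 to 354 for Suz12, with Ezh2, the main H3K27 methyltransferase of dividing cells, at 299 ± 10.8. Among the lysine demethylases Kdm3b was highest and Kdm6b, which removes H3K27 methylation, lowest at 85.7 ± 18.3. Prmt5, the main enzyme of symmetric arginine dimethylation, led the arginine methyltransferases at 286 ± 11.9, and Prmt2 was lowest at 86.7 ± 17.9. The 46 genes were covered by 115 to 2734 reads per library in the knockdown and by 80 to 4156 in the rescue.

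**Figure D1:**
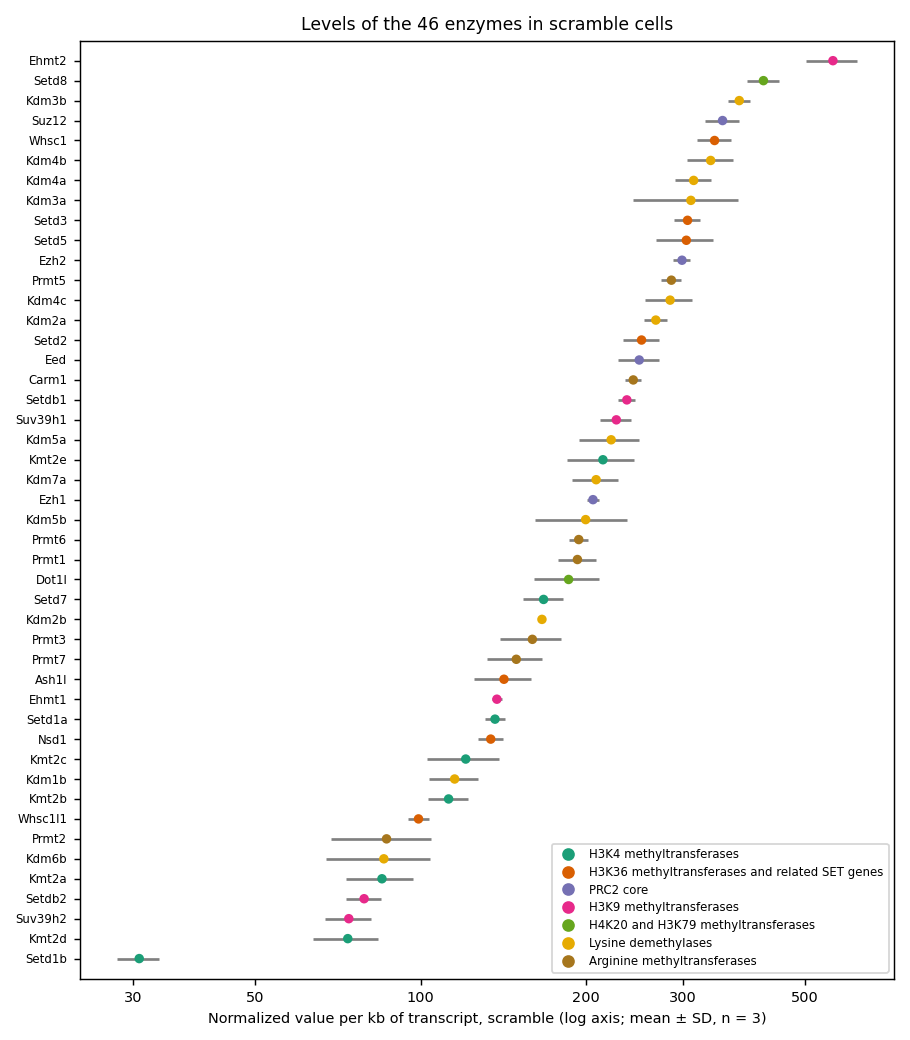
Normalized value per kilobase of transcript of the 46 enzymes in scramble cells, on a log axis, with points at the mean and bars of ± SD over 3 libraries, coloured by class. Ehmt2 (562 per kb) and Setd1b (30.8 per kb) are set off at the ends, and most neighbouring ranges meet.

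Promoter windows were read for 33 of the 46 genes from RefSeq (GRCm38.p6), taking the 250 bases upstream of the annotated start. They were searched on both strands for TGGGAA, the core that RBPJ binds, and for the E2F-type motifs TTTCCCGC and TTTGGCGC, which do not contain it. TGGGAA or its reverse complement TTCCCA was found in 5 of 33 (15.2%), in Ehmt2, Prmt2, Prmt7, Setd7 and Setdb1, against 24.1% of 27025 genes. An E2F-type motif was found in 1 of 33 (3.03%), Suz12, against 1.51% of the same genes. A match is a description of the letters only. Below are 3 of the 5 TGGGAA windows, those of Setd7, Setdb1 and Prmt7, and the Suz12 window. The windows of Ehmt2 and Prmt2 are not printed. Each is printed 5′ to 3′ along the gene's strand with the motif in capitals. Setd7 is at chr3:51560824-51561073 (minus strand), Setdb1 at chr3:95357203-95357452 (minus strand), Prmt7 at chr8:106210804-106211053 (plus strand) and Suz12 at chr11:79992856-79993105 (plus strand).
Setd7: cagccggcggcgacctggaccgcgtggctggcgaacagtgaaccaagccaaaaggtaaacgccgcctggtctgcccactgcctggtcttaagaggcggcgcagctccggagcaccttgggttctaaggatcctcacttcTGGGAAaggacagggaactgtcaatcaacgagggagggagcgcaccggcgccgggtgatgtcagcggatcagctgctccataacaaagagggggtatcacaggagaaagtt
Setdb1: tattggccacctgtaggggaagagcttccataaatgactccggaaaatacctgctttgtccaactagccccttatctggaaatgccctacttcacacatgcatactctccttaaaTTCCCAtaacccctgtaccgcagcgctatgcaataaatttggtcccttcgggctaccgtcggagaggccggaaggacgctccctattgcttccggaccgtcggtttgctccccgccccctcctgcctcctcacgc
Prmt7: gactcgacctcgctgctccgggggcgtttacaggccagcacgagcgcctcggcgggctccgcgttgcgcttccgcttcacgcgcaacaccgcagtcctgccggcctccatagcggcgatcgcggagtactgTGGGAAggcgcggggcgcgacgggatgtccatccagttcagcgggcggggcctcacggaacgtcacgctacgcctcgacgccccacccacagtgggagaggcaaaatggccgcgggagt
Suz12: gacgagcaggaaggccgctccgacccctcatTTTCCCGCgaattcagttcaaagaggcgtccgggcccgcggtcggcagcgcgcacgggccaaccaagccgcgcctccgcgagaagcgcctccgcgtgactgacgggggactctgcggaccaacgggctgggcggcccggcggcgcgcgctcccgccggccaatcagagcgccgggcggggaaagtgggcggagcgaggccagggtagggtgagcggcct

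With the L3MBTL3 hairpin, no enzyme was called higher or lower by limma at an adjusted p under 0.05. At that threshold 2.21% of all 11586 genes tested were called higher and 1.11% lower. edgeR called 0 of the 46, where it called 2.76% of all genes higher and 1.31% lower. DESeq2 called 1 lower, Dot1l (adjusted p = 0.0212), where it called 1.76% of genes lower. An unadjusted p under 0.05 was reached by 9 of 46 with limma, by 9 with edgeR and by 6 with DESeq2. The share of all genes below that unadjusted threshold was not taken, here or in the rescue. Log2 differences of the enzymes were small, from -0.36 for Kdm6b to 0.33 for Setdb2. Of the 46, 10 were positive and 36 negative, with a median of -0.04, beside -0.01 for all genes tested. That split depended on scaling and on 1 library: 21 were positive and 25 negative after quantile scaling, and 20 and 26 without scramble replicate 3. The 95% intervals of the enzymes lay between -0.75 and 0.53 on the log2 scale, with a median half-width of 0.17.

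The libraries of the knockdown groups did not overlap for 6 enzymes that were higher and 8 that were lower with the hairpin, 14 of 46, where 18.1% of all genes tested lay higher, 17.1% lower and 35.2% in either direction without overlap. The 6 higher were Setd7, Ezh1, Ehmt1, Setdb1, Setdb2 and Kdm1b. The 8 lower were Whsc1, Ezh2, Suz12, Suv39h1, Setd8, Dot1l, Kdm2b and Prmt5. Their share was thus near the background.

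Dot1l and Setdb2 had the largest log2 differences among the non-overlapping genes. Dot1l, the only known H3K79 methyltransferase, had values of 1191, 1145 and 1460 in scramble replicates 1 to 3 and of 926, 982 and 1063 with the hairpin. All 3 hairpin libraries lay below all 3 scramble libraries, and scramble replicate 3 was the highest. It averaged 990 ± 68.8 with the hairpin and 1266 ± 170 with scramble (SD, n = 3 each), which is a log2 difference of -0.35 ± 0.10 (SE) with a limma adjusted p of 0.0789. Setdb2, an enzyme related to the H3K9 methyltransferase Setdb1, had values of 259, 232 and 227 in scramble and 283.5, 319 and 300 with the hairpin. The groups did not overlap, and the hairpin group was the higher. The means were 301 ± 17.7 with the hairpin and 239 ± 17.2 with scramble, a log2 difference of 0.33 ± 0.09 (SE) with an adjusted p of 0.0707.

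When the replicate number was entered as a block, 7 of the 46 passed the test, 1 higher and 6 lower. In that fit 13.5% of all genes were called higher and 8.71% lower, so the enzymes called lower (6 of 46) were not far from the background and those called higher fewer. Setdb2 rose (limma adjusted p = 0.0225, replicate block). The 6 that fell were Kdm6b (log2 difference -0.36, adjusted p = 0.00241), Dot1l (-0.35, 0.00176), Suz12 (-0.23, 0.00943), Setd8 (-0.22, 0.0126), Whsc1 (-0.21, 0.0171) and Kmt2a (-0.20, 0.0194), each with the block. All 7 moved the same way in each of the 3 numbered pairs, which the block fit favours, so this adds no support. Enzymes that this fit did not call, such as Ezh2 and Suv39h1, also fell in each pair. Kdm6b differed by -0.44, -0.27 and -0.36 on the log2 scale in pairs 1, 2 and 3, Dot1l by -0.36, -0.22 and -0.46, and Setdb2 by 0.13, 0.46 and 0.40. Same-numbered knockdown libraries correlated at 0.240 to 0.539, but libraries numbered 1 and 2 also correlated across numbers at 0.104 to 0.332, so the pairing of 1 with 1 and 2 with 2 is uncertain.

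The other genes called with the block, described because they passed it, showed the same kind of pattern by library. Kdm6b had values of 546, 463 and 703 in scramble and 402, 384 and 547 with the hairpin, so that the groups overlapped through replicate 3 of the hairpin. Suz12 had 1474, 1501 and 1673 in scramble and 1287, 1305 and 1377 with the hairpin, without overlap. Setd8 had 1079, 1145 and 1230 against 959, 998 and 1013, also without overlap. Whsc1 encodes the H3K36 dimethyltransferase NSD2, and Kmt2a the H3K4 methyltransferase MLL1. Whsc1 had 2558, 2562 and 2881 in scramble and 2193, 2287 and 2441 with the hairpin, without overlap. Kmt2a had 1387, 1212 and 1604 against 1175, 1044 and 1465, and its groups overlapped. Replicate 3 of each group was the highest of its group for these 5 genes.

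**Figure D2:**
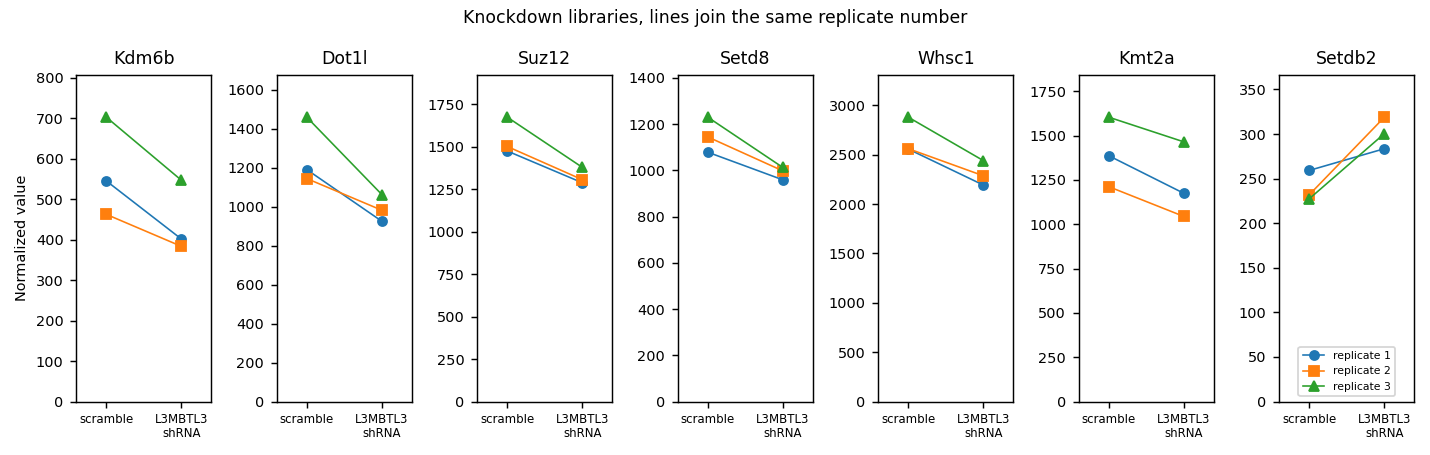
Normalized values of the 7 enzymes called with the replicate block, in scramble and L3MBTL3 hairpin libraries, each panel on its own axis from 0, with lines joining libraries of the same replicate number. All 3 lines fall for Kdm6b, Dot1l, Suz12, Setd8, Whsc1 and Kmt2a and rise for Setdb2.

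Scramble replicate 3 stood apart from the other scramble libraries (chi-square per degree of freedom 6.22 and 6.38, against 1.42 between replicates 1 and 2). In it 30 of 46 enzymes lay above their mean over the 6 libraries, with a median deviation of 0.12 on the log2 scale, beside 0.003 for all genes tested. Without scramble replicate 3, limma called 2 of the 46 lower, Suz12 (log2 difference -0.17, adjusted p = 0.0461) and Dot1l (-0.24, 0.0447), and 5.58% of all genes were called higher and 3.31% lower. With replicate 3 left out of both groups, an alternative chosen after seeing the data, 1 enzyme was called higher and 7 lower, where 9.17% of all genes were called higher and 7.42% lower. Dot1l then differed by -0.29 (adjusted p = 0.00324). The 7 lower included the same 6 genes and Prmt7.

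By class, the direction with the hairpin was mixed, where 48.7% of all genes tested were positive. The split over the 46 depended on scaling and on scramble replicate 3, as given above. Of the 8 H3K4 methyltransferases 7 had negative log2 differences, from -0.20 for Kmt2a, and Setd7, an H3K4 monomethyltransferase, had 0.16. Of the 4 PRC2 core genes Suz12, Ezh2 (-0.16) and Eed (-0.15), which encodes the subunit that reads H3K27 trimethylation, were negative, and Ezh1 was 0.12. Limma adjusted p-values of the 4 were 0.0828, 0.133, 0.255 and 0.188. The H3K9 class split into 3 positive and 3 negative, and the 2 enzymes of H4K20 and H3K79, Setd8 and Dot1l, were both negative. Of the 12 demethylases 10 were negative with a median of -0.04, and of the 7 arginine methyltransferases 6 were, also with a median of -0.04. Among the H3K36 enzymes and related genes 5 of 7 were negative, and Nsd1 (0.09) and Whsc1l1 (0.05), whose products are relatives of NSD2, were positive.

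A list of 26 proliferation genes moved in the same libraries: 5 of 26, Cdc20, Cdc6, Mcm3, Rrm2 and E2f2, fell with the hairpin (limma, all genes adjusted) and 21 fell with the block. Of all genes, 1.11% were called lower without the block and 8.71% with it. Their summed level was 26582 to 30112 in scramble and 23696 to 25515 with the hairpin, without overlap. Of the 7 myeloid markers 2 had a mean of at least 10 over the 6 libraries, Cd68 (303) and Fcgr3 (26.4), and Lyz2 came next at 5.72. The summed level of the list, most of it Cd68, was 378 to 411 in scramble and 255 to 324 with the hairpin. The part of either list in the enzymes' differences was not tested. In bulk RNA, fewer cells of a kind and less RNA per cell cannot be told apart.

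Other genes of histone methylation, such as complex subunits and further methyltransferases, also had no calls with the hairpin by limma. Of the 36 tested, 9 had an unadjusted p under 0.05 by limma, a threshold at which all genes were not counted. With the replicate block 4 were called higher and 4 lower, where the 46 had 1 and 6. In that fit 13.5% of all genes were called higher and 8.71% lower. The smallest adjusted p without the block was that of Phf19 (log2 difference -0.43, adjusted p = 0.0798), a PRC2 accessory subunit, followed by Men1 (0.20, 0.0817), the menin subunit of MLL1 and MLL2 complexes.

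**Figure D3:**
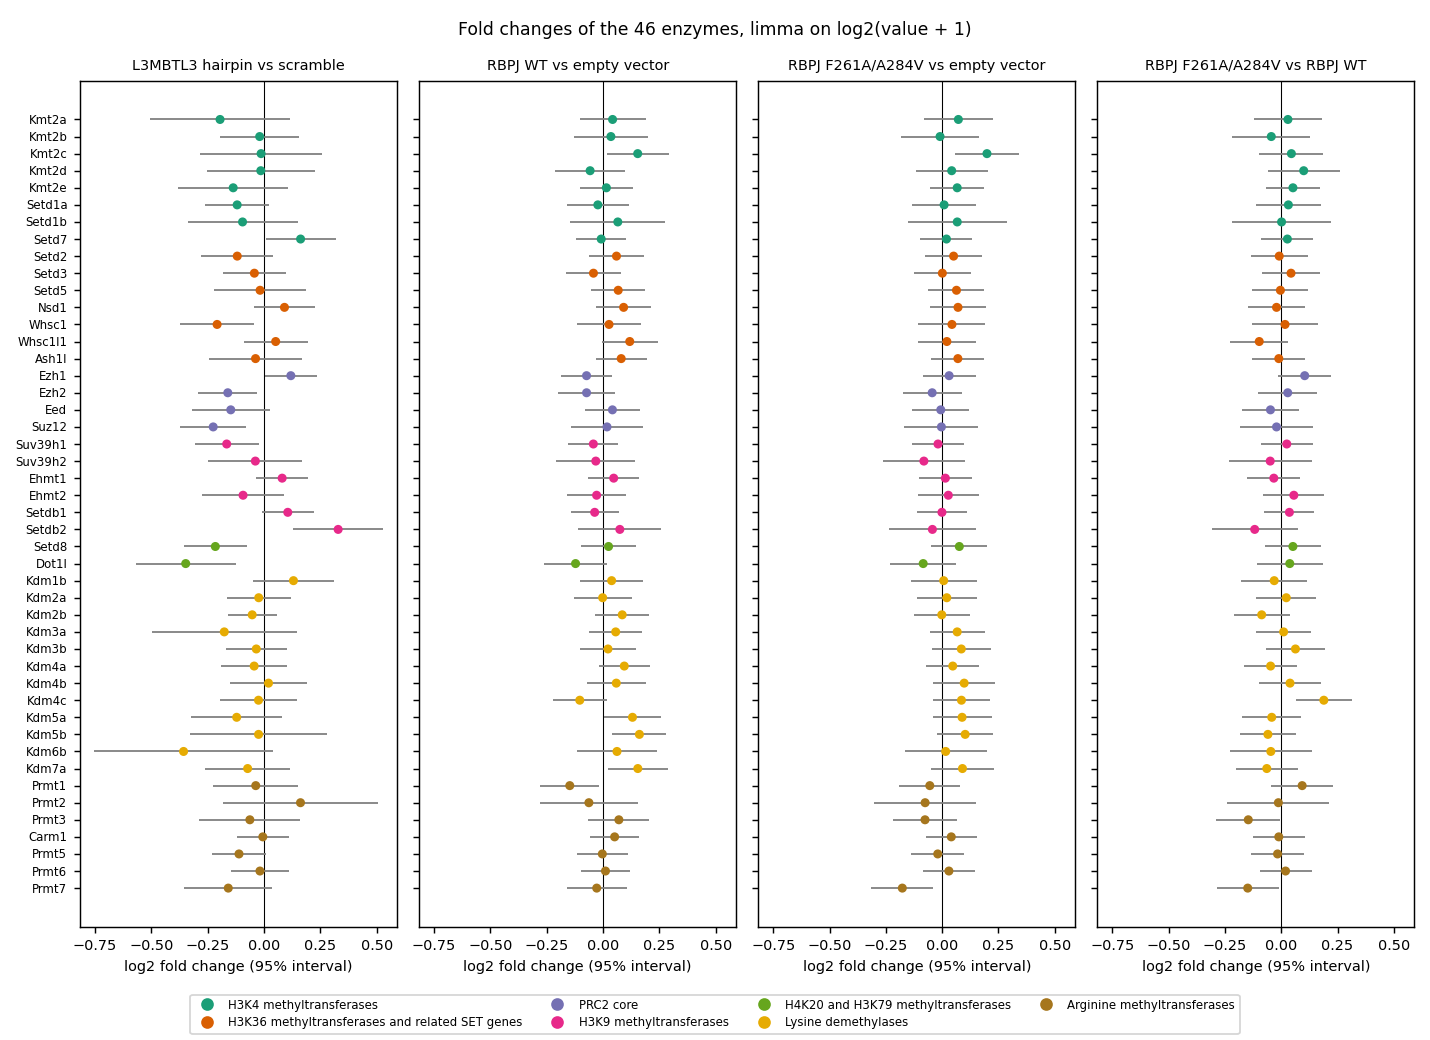
Log2 differences of the 46 enzymes (limma on log2(value + 1)) in the 4 comparisons, with 95% intervals, coloured by class. All points lie between -0.36 and 0.33, and the intervals are wider in the knockdown (median half-width 0.17) than in the rescue (0.13).

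Restoring RBPJ WT called none of the 46 enzymes by limma, beside 0.667% of all 11691 genes tested called higher and 0.855% lower. edgeR called none either, where it called 0.693% of all genes higher and 0.83% lower. DESeq2 also called none, where it called 0.445% higher and 0.599% lower. Without adjustment, 5 of 46 had a p under 0.05 by limma and 4 by each of edgeR and DESeq2. All genes were not counted at that threshold. The log2 differences were positive for 29 and negative for 17, from -0.15 to 0.16, with a median of 0.03 beside -0.01 for all genes. The 95% intervals of all 46 lay between -0.28 and 0.29. Of the 12 demethylases 10 were positive, with a median of 0.06, where 46.2% of all genes tested were positive. The 5 with an unadjusted p under 0.05 were Kdm5b, Kdm7a, Kmt2c and Kdm5a, with positive differences, and Prmt1, with -0.15.

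The libraries did not overlap for 3 of the 46, Kdm5b and Kdm7a higher and Suv39h1 lower, where 3.34% of all genes did not overlap. Kdm5b, an H3K4 demethylase, had values of 700, 662, 761 and 757 in empty vector replicates 1 to 4 and 797, 779, 859 and 811 with RBPJ WT. Every RBPJ WT library was above every empty vector library. The log2 difference was 0.16 ± 0.06 (SE, limma adjusted p = 0.248), and it was 0.21 in replicates 1 and 2 and 0.14 in replicates 3 and 4. Kdm7a, a demethylase of H3K9 and H3K27, had 1075, 1023, 941 and 1062 with empty vector and 1145, 1112, 1084 and 1181 with RBPJ WT. These groups did not overlap either. The difference was 0.15 ± 0.06 (adjusted p = 0.358), and it was 0.11 and 0.18 in the 2 sets of replicates. Suv39h1, which trimethylates H3K9, differed by -0.04 (adjusted p = 0.813).

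RBPJ F261A/A284V against empty vector also called none of the 46 by limma, where 0.0513% of all genes were called higher and 0.0428% lower. edgeR called none, where it called 0.128% of all genes higher and 0.0855% lower. DESeq2 also called none, where it called 0.077% higher and 0.0513% lower. Without adjustment, 2 of the 46 had a p under 0.05 by limma, and also 2 by each of edgeR and DESeq2. The differences were positive for 31 and negative for 15, with a median of 0.02 beside 0.01 for all genes, and after quantile scaling 25 were negative. The 95% intervals lay between -0.31 and 0.34. No enzyme was free of overlap between these groups, where 1.92% of all genes were. The comparison shares its control libraries with the preceding one.

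Kmt2c, an H3K4 monomethyltransferase of enhancers, had 1398, 1410, 1097 and 1030 with empty vector and 1488, 1760, 1119 and 1260 with F261A/A284V. In both sets of replicates the F261A/A284V libraries were above those of empty vector, although the groups overlapped across the sets. The log2 difference was 0.20 ± 0.07 (SE, limma adjusted p = 0.724). With RBPJ WT the same gene had 1494, 1464, 1260 and 1172 and a difference from empty vector of 0.15 (adjusted p = 0.374). Prmt7, an arginine monomethyltransferase, had 552, 602, 678 and 746 with empty vector and 546, 517, 611 and 563 with F261A/A284V. Within each set the F261A/A284V libraries were the lower. The difference was -0.18 ± 0.07 (adjusted p = 0.789).

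Between F261A/A284V and RBPJ WT none of the 46 was called by limma, where 1.08% of all genes were called higher and 0.881% lower. edgeR called none, where it called 1.44% of all genes higher and 1.27% lower. DESeq2 also called none, where it called 0.872% higher and 0.684% lower. Without adjustment, 3 of the 46 had a p under 0.05 by limma, 2 by edgeR and 1 by DESeq2. Of the 46, 23 were positive and 23 negative, the median was -0.001 beside 0.02 for all genes, and the 95% intervals lay between -0.31 and 0.31. No enzyme was free of overlap, where 3.70% of all genes were. Each group of this comparison also stands in one of the comparisons above.

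Kdm4c, an H3K9 and H3K36 demethylase, differed most. Its values were 862, 854, 963 and 1049 with RBPJ WT and 981, 906, 1175 and 1167 with F261A/A284V. The F261A/A284V libraries were the higher in both sets of replicates, and the groups overlapped across the sets. The log2 difference was 0.19 ± 0.06 (SE, limma adjusted p = 0.146). It was 0.14 in replicates 1 and 2 and 0.22 in replicates 3 and 4. Kdm4c passed the test when all 12 libraries were used with the replicate block (0.18, adjusted p = 0.0193) or with a term for the sets of replicates (adjusted p = 0.0182), fits in which libraries that differ by less than sampling noise count separately. Those fits called 2.51% and 2.61% of all genes higher, so 1 of 46 is near the background. With empty vector Kdm4c had 857, 868, 1088 and 1145. Prmt7, with 544, 537, 741 and 686 in RBPJ WT, was lower with F261A/A284V by -0.15 ± 0.07 (adjusted p = 0.402). That difference was -0.02 in replicates 1 and 2 and -0.28 in replicates 3 and 4.

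The fits above hold 1 difference for both sets of rescue replicates, and the sets did not always show the same one. Against empty vector, F261A/A284V gave positive differences for 41 of 46 enzymes in replicates 1 and 2 (median 0.06) and for 16 of 46 in replicates 3 and 4 (median -0.03). Over all genes tested, 54.0% and 50.5% were positive. Against RBPJ WT the counts were 34 and 13 of 46, with medians of 0.05 and -0.05, where 56.5% and 53.8% of all genes were positive. RBPJ WT against empty vector gave 30 and 29 positive. In replicates 1 and 2, 36 of 46 enzymes lay above their 6-library mean in F261A/A284V replicate 1 and 29 in replicate 2, against 11 and 12 in the 2 empty vector libraries. The difference between the sets was not tested.

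**Figure D4:**
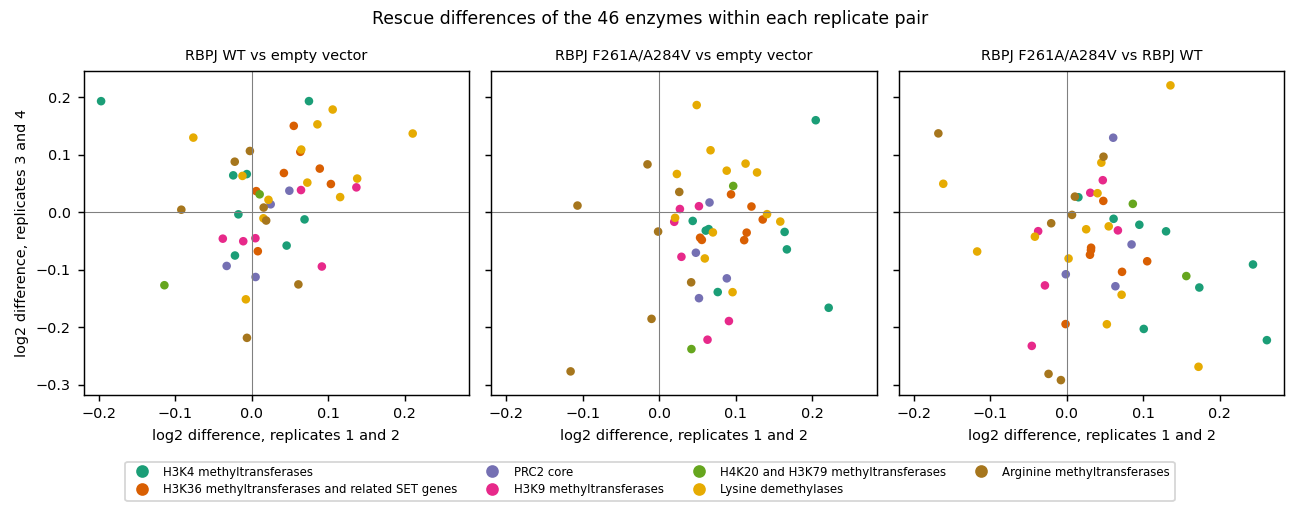
Log2 differences of the 46 enzymes in replicates 3 and 4 (vertical axis) against those in replicates 1 and 2 (horizontal axis), 1 panel per rescue comparison, coloured by class. In the panels with F261A/A284V most points lie right of 0 (41 and 34 of 46) and fewer above it (16 and 13).

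Enzymes whose libraries did not overlap within either set, in opposite directions, numbered 1 for RBPJ WT against empty vector, 3 for F261A/A284V against empty vector and 7 for F261A/A284V against RBPJ WT. The share over all genes was 2.89%, 6.79% and 5.88%. In the same direction they numbered 11, 4 and 4 of 46, beside 17.6%, 10.0% and 14.5% of all genes. With 2 libraries per group in each set, and some of them alike within sampling noise, lack of overlap is a weak criterion. Setd1b is an example: it had 198, 196, 167 and 151 with empty vector, 190, 155, 190 and 174 with RBPJ WT and 206, 205, 145 and 168 with F261A/A284V. Its RBPJ WT libraries were below those of the other groups in replicates 1 and 2 and above them in replicates 3 and 4. Using replicates 3 and 4 alone, with each library counted separately, limma called Kdm4c higher and Prmt3 and Prmt7 lower with F261A/A284V than with RBPJ WT (log2 differences 0.22, -0.29 and -0.28, adjusted p = 0.0318, 0.0165 and 0.0199), and replicates 1 and 2 alone called none. In replicates 3 and 4 alone 3.64% of all genes were called higher and 3.40% lower, so these counts too are near the background.

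Between the 2 sets of rescue replicates, log2 differences of the enzymes ran from -0.61 to 0.69, a wider range than in any of the 4 comparisons. The description below carries no test, because the sets were seen in these data, and sequencing depth moved with them. All 6 libraries of replicates 3 and 4 lay above all 6 of replicates 1 and 2 for 13 of the 46 enzymes and below for 6, where 26.2% and 21.3% of all genes did so (47.5% in either direction). Kdm4b, an H3K9 and H3K36 demethylase, had the largest difference, 0.69 on the log2 scale, with 1621 to 1886 in replicates 1 and 2 and 2672 to 2867 in replicates 3 and 4. Ehmt2 followed with 0.53 and Prmt1, the main enzyme of asymmetric arginine dimethylation, with 0.42. Suv39h2, a second enzyme of H3K9 trimethylation, was lowest at -0.61, with 376 to 413 and 213 to 295. Kdm1b, an H3K4 demethylase related to Kdm1a, differed by -0.52 and Setdb2 by -0.46.

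By class, the number of genes that stood apart between the sets depended in part on the scaling. With the deposited scaling none of the 4 PRC2 core genes did, and 1 of the 8 H3K4 methyltransferases did, Kmt2c, which was lower in replicates 3 and 4. Both Setd8 and Dot1l were higher in replicates 3 and 4, as were 3 of the 7 arginine methyltransferases, Prmt1, Prmt5 and Prmt6, while Prmt2 was lower. After quantile scaling 8 enzymes were higher and 18 lower in replicates 3 and 4, and their median difference moved from 0.02 to -0.13, while over all genes tested it was -0.02 and -0.002, with 24.7% higher and 20.8% lower after that scaling. Then 6 of the 8 H3K4 methyltransferases, Kmt2a, Kmt2c, Kmt2d, Kmt2e, Setd1a and Setd7, were lower in replicates 3 and 4, and Dot1l overlapped. Setd8, Prmt1, Prmt5 and Prmt6 were still higher, Prmt2 still lower, and none of the 4 PRC2 core genes stood apart.

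**Figure D5:**
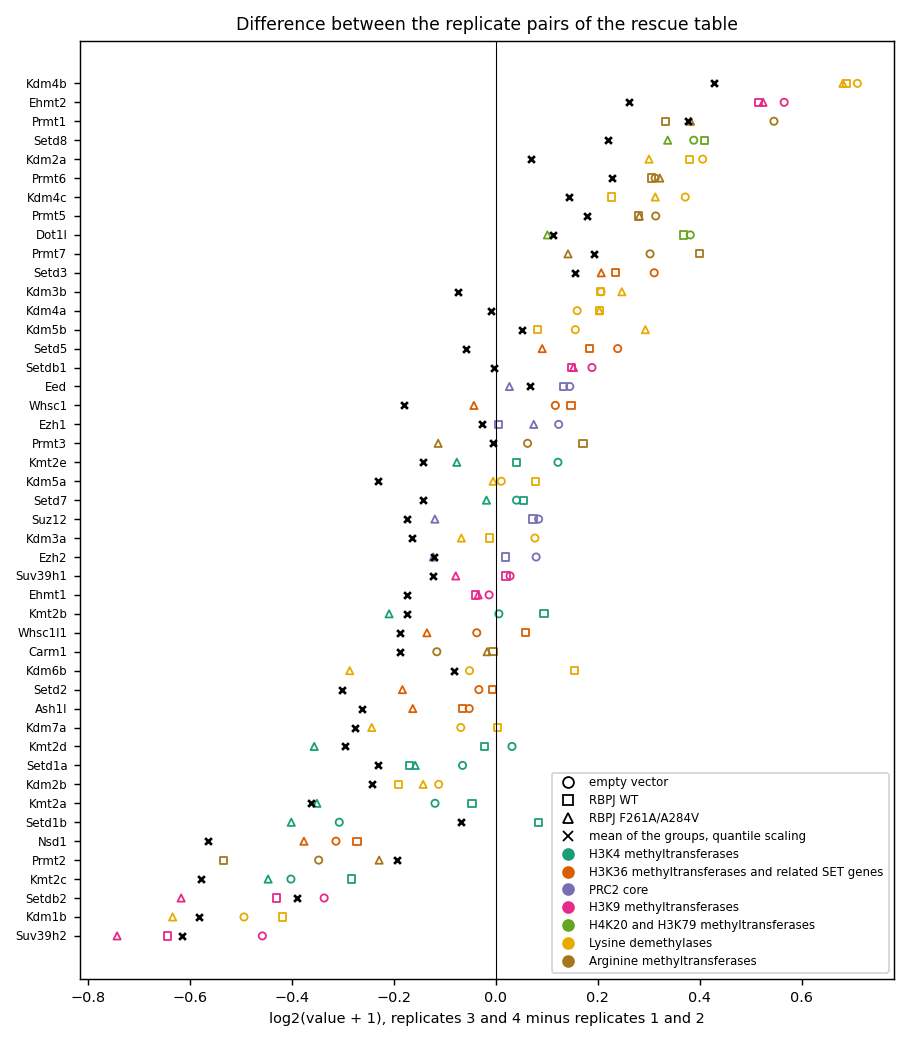
Difference in log2(value + 1) between replicates 3 and 4 and replicates 1 and 2 for each enzyme, with 1 open symbol per rescue group, coloured by class, and a cross for the mean of the groups after quantile scaling. The 3 groups lie close together for Kdm4b (mean 0.69) and are spread for Suv39h2 (mean -0.61, from -0.46 to -0.74), and most crosses lie left of the symbols.

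In the rescue the wider list of methylation genes resembled the 46 in having no calls. For RBPJ WT against empty vector, 20 of its genes were positive and 15 negative, where the 46 had 29 and 17. For F261A/A284V against empty vector, 16 were positive and 19 negative, where the 46 had 31 and 15. After quantile scaling the 46 had 21 and 25 in that comparison. For F261A/A284V against RBPJ WT, 15 of the wider list were positive and 20 negative, where the 46 had 23 and 23. Between the sets of replicates, 14 of 35 stood apart as higher in replicates 3 and 4 and 9 as lower, where the 46 had 13 and 6. None of the 35 tested was called by limma in any of the 3 comparisons. At an unadjusted p under 0.05 by limma there were 1, 1 and 4, and all genes were not counted at that threshold. Those counts are for RBPJ WT against empty vector, F261A/A284V against empty vector and F261A/A284V against RBPJ WT, in that order. Of the cell type markers, the myeloid gene Itgam and the T cell gene Cd28 fell with RBPJ WT against empty vector (log2 differences -1.69 and -0.81). Between F261A/A284V and RBPJ WT, 1 myeloid marker and 1 T cell marker were called higher. The summed myeloid markers were 287 to 313 with empty vector and 235 to 265 with RBPJ WT, without overlap. With F261A/A284V the summed myeloid markers were 275 to 310, which overlapped empty vector. Their part in the enzymes' differences was not tested.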

How the data were processed

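The authors deposited 1 table of normalized values per experiment (unit: signal), which behave as gene counts divided by 1 size factor per library: when divided by what 1 read is worth in its library, 100% of values came out whole (tolerance 0.1 read). The submitters' processing notes name TopHat2 2.1.1, build mm9 and DESeq2 1.24.0. As the read counter, annotation, strand and duplicate handling were not given in the sources used here, reads shared with overlapping genes or gene copies are uncertain. The tables were normalized separately, and tests were run within each.

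Groups were compared on log2(value + 1) by 2-sided limma-trend (limma 3.58.1, R 4.3.3). Genes entered with 10 or more in 3 libraries of the knockdown (11586 genes) or 4 of the rescue (11691 genes). The Benjamini-Hochberg adjustment ran over all genes tested, and calls were made below 0.05. Where no tool stands beside an adjusted p, it is limma's. The knockdown fit had group as its only term. The rescue was 1 fit of 9 samples with group and a term for replicates 1 and 2 against 3 and 4. Since the samples of a group are spread unevenly over those sets, values are given per library and not as group means.

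Recovered reads were also tested with edgeR 4.0.16 and DESeq2 1.42.0. Further alternatives were a pseudocount of 5, no filter, quantile scaling, a replicate block, each replicate left out and each set alone. In the rescue, same-numbered libraries correlated at 0.550 to 0.815 in their deviations from group means, other libraries of the same set at 0.559 to 0.832 and libraries of different sets at -0.761 to -0.491, so numbers show no pairing beyond the sets. In the knockdown every same-numbered pair correlated above 0.1, and the block is given beside the results it changes.

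The enzymes, the other lists and the tests were chosen with earlier results of these data known. Where no enzyme was called, values per library were given for the 2 with the largest difference in a comparison by a fixed rule that prefers groups without overlap, and the genes called under an alternative were added after their values were seen. The analysis was checked on simulated data.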

Additional observations from a re-analysis of the deposited data

Results flagged for a closer look

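Some enzymes differed in opposite directions between the 2 sets of rescue replicates, with no overlap between the groups' libraries within either set. The difference between the sets was not tested for any of them. Over all genes the share was 2.89%, 6.79% and 5.88% in the comparisons in the order below. With 2 libraries per group in each set, lack of overlap is a weak criterion. Values are log2 differences in replicates 1 and 2 and then in replicates 3 and 4.

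For RBPJ WT against empty vector this was the case for Setd1b, at -0.20 and 0.19. For F261A/A284V against empty vector it held for Kmt2d, a paralog of Kmt2c, at 0.22 and -0.17. It also held for Eed, at 0.0479 and -0.0704, and for Prmt2, at -0.11 and 0.0116. In replicates 3 and 4 Prmt2 had 135.5 and 136.0 with empty vector and 137.0 and 136.7 with F261A/A284V. There 1 read was worth 1.37 to 1.54 in those libraries, so the Prmt2 values were nearly the same.

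For F261A/A284V against RBPJ WT it held for 7 enzymes, each with a positive value in replicates 1 and 2 and a negative one in replicates 3 and 4. Setd1b was at 0.26 and -0.22, and Kdm6b at 0.17 and -0.27. Kmt2a was at 0.17 and -0.13, and Dot1l at 0.16 and -0.11. Whsc1 was at 0.11 and -0.0853, Setd2, the enzyme of H3K36 trimethylation, at 0.0722 and -0.10, and Kdm7a at 0.0523 and -0.19.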

How the results depend on the processing

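In the knockdown, 0 of 46 enzymes were called higher by limma and 0 lower. The replicate block gave 1 higher and 6 lower, DESeq2 0 and 1, quantile scaling 0 and 4, replicates 1 and 2 alone 1 and 7, and those with the replicate block 2 and 11, the last 2 settings chosen after seeing the data. In the same order, 13.5%, 4.06%, 4.6%, 9.17% and 14.8% of all genes were called higher. The shares called lower were 8.71%, 1.76%, 3.25%, 7.42% and 12.6%. Leaving out each library gave 0 higher and 0 to 2 lower. Between F261A/A284V and RBPJ WT, 1 was called higher with the replicate block on 12 libraries, 1 with 12 libraries and the term for the sets, and 1 higher and 2 lower with replicates 3 and 4 alone. Leaving out each library gave 0 in each direction there and in both comparisons with empty vector, which had 0 calls under all other settings as well. The replicate block changed no call in these last 2. Between the sets, quantile scaling gave 8 higher and 18 lower. No log2 difference of an enzyme named by rule turned its sign.

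Counts over all genes depended more on the fit. In the knockdown they were 256 higher and 129 lower, 1566 and 1009 with the replicate block, 460 and 201 by DESeq2, 533 and 376 after quantile scaling, 646 and 383 without scramble replicate 3, 1063 and 860 with replicates 1 and 2 alone, 1713 and 1458 with those and the replicate block, 179 and 78 without the filter on low values, and 0 and 0 without hairpin replicate 1, hairpin replicate 2 or scramble replicate 2. Without hairpin replicate 3 they were 2 and 3. For RBPJ WT against empty vector they were 78 and 100, 4 and 25 with 12 libraries and group only, 2 and 11 with merged samples and group only, and 34 and 60 without the filter. For F261A/A284V against empty vector they were 6 and 5, 47 and 29 with the replicate block on 12 libraries, 81 and 53 with replicates 3 and 4 alone, and 1 and 0 with merged samples and group only. For F261A/A284V against RBPJ WT they were 126 and 103, 305 and 293 with 12 libraries and the term for the sets, 426 and 398 with replicates 3 and 4 alone, 27 and 10 with 12 libraries and group only, 10 and 2 with merged samples and group only, and 65 and 56 without the filter. The cause of these changes was not tested. Depth limits the rescue at replicates 3 and 4, where Prmt2 had as few as 80 reads.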
